A study of Mus musculus with 2 samples.

Results

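The insulin-like growth factor (IGF) system was followed across the cell classes of mouse leptomeninges through 10 genes: the ligands Igf1 and Igf2, the receptors Igf1r and Igf2r, and the binding proteins Igfbp2, Igfbp3, Igfbp4, Igfbp5, Igfbp6 and Igfbp7. They were taken by gene symbol, and all 10 were found among the 32287 features counted in each library. In these data the ligands and binding proteins were divided between layers and cell types. Igf2 and Igfbp2 were highest in pial and perivascular fibroblast-like cells, Igfbp5 in dural border-like cells, Igfbp6 in arachnoid barrier-like cells, Igf1 and Igfbp4 in border macrophage-like cells, Igf1r in endothelial-like cells, and Igfbp7 in mural- and endothelial-like cells.

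IGF1 and IGF2 are secreted polypeptides that signal through the receptor tyrosine kinase encoded by Igf1r, while the receptor encoded by Igf2r takes IGF2 into the cell for breakdown in lysosomes. IGF-binding proteins hold the ligands in extracellular fluid and matrix, can prolong or block their access to the receptor, and release them when cut by proteases. Igf2 is imprinted, and in the adult mouse brain the meninges and choroid plexus are known as its main sites of expression.

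The libraries, R1 and R2, were single-cell RNA libraries made on a Chromium droplet instrument from leptomeninges peeled by hand from the cerebral hemispheres of Pdgfra-H2BGFP mice aged 3 months, of both sexes. Pdgfra-H2BGFP is a knock-in reporter in which a nuclear green fluorescent protein follows the Pdgfra gene, which fibroblasts express, and every mouse of the study carried it. The labels put both libraries in 1 group with no treatment, and do not say whether they came from separate animals or from pools. All comparisons are therefore between cell classes within the libraries (n = 2 libraries), and p-values measure only the spread between these samples, which may be technical.

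Transcripts were counted by their molecular tags (UMIs), 14586462 over 7276 barcodes in R1 and 12359040 over 6743 barcodes in R2. After filtering, 2909 and 2960 cells remained, with medians of 1635 and 1231 UMIs. The libraries shared 93 barcode sequences. When these were kept, 1 endothelial cluster of 117 cells consisted of shared barcodes alone (58 of R1 and 59 of R2), against 40 of the 5909 cells elsewhere. Of the 74 shared sequences that passed the filters in both libraries, 71 fell in the same cluster in both. Shared barcodes were therefore left out of all values below, and results that depend on them are given both ways.

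Clusters were drawn without the IGF genes and named from marker lists, with "-like" understood for each class. The fibroblast-like cells fell into 4 layers: pial and perivascular cells (303), inner arachnoid fibroblasts (718), arachnoid barrier cells (83) and dural border cells (725). They lie in that order from the brain surface outwards. The other classes used were endothelial (513), mural (90), border macrophage (1217) and microglia (275), so that the 8 classes held 3924 of 5869 kept cells. Class names were checked against summed markers: 10 general fibroblast markers such as Col1a2 and Dcn summed to 10081 CPM (a gene's UMIs over all UMIs of a class, on the usual scale) in R1 and 10070 CPM in R2 in pial cells and between 2541 and 4409 CPM in the other layers, and stayed at or below 493 CPM in border macrophages and microglia. Vessel classes were not free of these markers. In mural cells Col1a2 had 365 and 506 CPM and Col3a1 380 and 506 CPM, while Pdgfra had 0 counts. In arterial endothelial cells Bgn, another of the 10, had 1241 and 1236 CPM, above its 682 and 611 CPM in pial cells. Dural border cells belong to the innermost dura in most accounts, so the peeled tissue held more than the leptomeninges proper.

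Igfbp2 and Igfbp5 are next to each other in the genome and were high in different layers, while Igf2, on another chromosome, had the pattern of Igfbp2. In the GENCODE vM21 annotation of GRCm38, Igfbp2 (ENSMUSG00000039323) lies on the plus strand of chromosome 1 from 72824503 to 72852474 and Igfbp5 (ENSMUSG00000026185) on the minus strand from 72857932 to 72874884. The genes point towards each other, with 5457 bases between their ends. Igf2 (ENSMUSG00000048583) lies on the minus strand of chromosome 7 from 142650766 to 142666816. To show what stands before the starts of these genes, the 250 bases upstream of a RefSeq start (GRCm38.p6) are printed 5′ to 3′ on the gene's strand, in lower case, with motif matches on either strand in capitals. The Igfbp2 window is chr1:72824230-72824479 on the plus strand and overlaps 0 bases of the gene's GENCODE exons. The Igfbp5 window is chr1:72874866-72875115 on the minus strand, and 19 of its bases fall in the first exon of the GENCODE model. For Igf2, which has several starts, the most downstream RefSeq start is shown: chr7:142657497-142657746 on the minus strand, an intron of the longer transcripts with 0 exonic bases. The counts do not tell which start was used.
Igfbp2: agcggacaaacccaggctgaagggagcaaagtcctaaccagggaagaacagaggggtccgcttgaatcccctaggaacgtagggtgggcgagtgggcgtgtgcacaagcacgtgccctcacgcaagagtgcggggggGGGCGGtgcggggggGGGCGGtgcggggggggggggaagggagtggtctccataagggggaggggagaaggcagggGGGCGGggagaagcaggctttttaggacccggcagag
Igfbp5: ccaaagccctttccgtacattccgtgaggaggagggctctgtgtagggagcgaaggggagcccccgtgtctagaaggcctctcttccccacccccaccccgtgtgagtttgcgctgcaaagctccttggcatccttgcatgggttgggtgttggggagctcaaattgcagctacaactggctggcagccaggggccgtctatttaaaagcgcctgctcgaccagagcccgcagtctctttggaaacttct
Igf2: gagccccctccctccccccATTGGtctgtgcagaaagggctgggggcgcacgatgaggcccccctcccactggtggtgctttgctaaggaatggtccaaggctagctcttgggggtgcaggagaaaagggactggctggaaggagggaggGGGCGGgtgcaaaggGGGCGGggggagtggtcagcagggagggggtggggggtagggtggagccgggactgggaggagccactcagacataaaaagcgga
The letters GGGCGG, known as a GC box, were searched on both strands, as were CCAAT, the box of that name, and TATAAA, the core promoter box. The last motif was TGTTTAC, which forkhead factors bind. The Igfbp2 window held 3 GC boxes, and the Igf2 window held 2 GC boxes and 1 CCAAT box. Of 32851 RefSeq windows of the same length, 32.7% held a GC box, 33.9% a CCAAT box, 12.4% a TATA box and 3.17% a forkhead motif. The Igfbp5 window held 0 matches to these letters. These matches are a description of the windows only.

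Igf2 was a gene of the inner layers. It stood at 4732 CPM in R1 and 2971 CPM in R2 in pial cells and at 1637 and 1356 CPM in inner arachnoid fibroblasts. Arachnoid barrier cells had 152 and 228 CPM and dural border cells 161 and 341 CPM. Pial cells were above inner arachnoid fibroblasts, and these above all other classes, in both libraries. In each library Igf2 was 2.89-fold (exact 95% counting interval 2.65 to 3.15) and 2.19-fold (1.98 to 2.42) higher in pial than in inner arachnoid cells. Against the mean log2 level of the other 3 layers, Igf2 was higher in pial cells by 3.26 ± 0.22 (log2 fold change ± SE, adjusted p = 1.4e-17) and in inner arachnoid fibroblasts by 1.85 ± 0.23 (adjusted p = 7.7e-09). It was lower in arachnoid barrier cells (log2 fold change -2.87 ± 0.37, adjusted p = 4.3e-08) and in dural border cells (-2.24 ± 0.29, adjusted p = 8.5e-09). These tests and those below are edgeR's quasi-likelihood test on counts summed per class and library, with Benjamini-Hochberg adjustment over all genes tested.

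In the 4 other classes of the 8, Igf2 lay between 80.5 CPM (microglia in R1) and 447 CPM (mural cells in R2). In erythroid cells, which should lack it, Igf2 stood at 47.8 and 77.7 CPM. After thinning each cell to 1000 UMIs, 86.2% (exact 95% interval 79.9 to 91.2) and 86.5% (76.5 to 93.3) of pial cells had an Igf2 UMI. The unthinned shares were 85.3% and 81.4%, and 30 and 39 shallower pial cells were left out by the thinning. Inner arachnoid fibroblasts had 70.4% and 65.2% at that depth, and erythroid cells 4.69% and 12.5%. Before thinning, the median depth was 2068 and 1414 UMIs in pial cells and 9526 and 8908 UMIs in erythroid cells. The shares in endothelial cells were 17.9% (12.8 to 23.95) and 16.05% (10.8 to 22.6), and their intervals overlapped those of the erythroid cells, 0.977 to 13.1 and 4.19 to 26.8, in both libraries. Erythroid cells were far deeper, so neither CPM nor shares at 1000 UMIs set the classes level per droplet. Their 66 and 44 cells held 29 and 27 Igf2 UMIs, and the 263 and 250 endothelial cells held 131 and 95. Free RNA from broken cells enters every droplet, and its part in these low levels was not tested.

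Igf1, the other ligand, was a border macrophage gene here (ENSMUSG00000020053, chromosome 10, 87858265 to 87937042, plus strand). Border macrophages held 352 and 312 CPM, pial cells 56.8 and 59.2 CPM, and dural border cells 20.8 and 7.17 CPM. Microglia had 7 counts (12.3 CPM) in R1 and 0 counts in R2, where 3 counts would be 11.6 CPM. Border macrophages thus exceeded microglia 28.7-fold (13.8 to 71.8) in R1 and at least 26.9-fold, against that floor, in R2. The difference passed the test (log2 fold change 5.48 ± 0.35, adjusted p = 1.4e-51). Border macrophages contributed 87.2% of all Igf1 UMIs of the kept cells. Arachnoid barrier cells had 0 Igf1 counts in both libraries, which allows 45.6 and 48.8 CPM.

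Among the layers Igf1 was higher in pial cells than in the other 3 (log2 fold change 3.89 ± 0.77, adjusted p = 1.3e-04), from 24 and 13 counts. The other 3 include arachnoid barrier cells with 0 counts, and R1 and R2 alone gave 2.61 and 2.49. The 8 border macrophage markers summed to 1049 and 642 CPM in pial cells and to 13341 and 14956 CPM in border macrophages, and the part of macrophage RNA in the pial Igf1 level was not tested. At 1000 UMIs per cell, 23.2% and 23.5% of border macrophages and 3.75% and 4.05% of pial cells had an Igf1 UMI. In erythroid cells it was 0 of 64 and 0 of 40 cells, which allows shares of up to 4.69% and 7.5%. The insulin genes Ins1 and Ins2 had 0 UMIs in the kept cells.

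**Figure D1:**
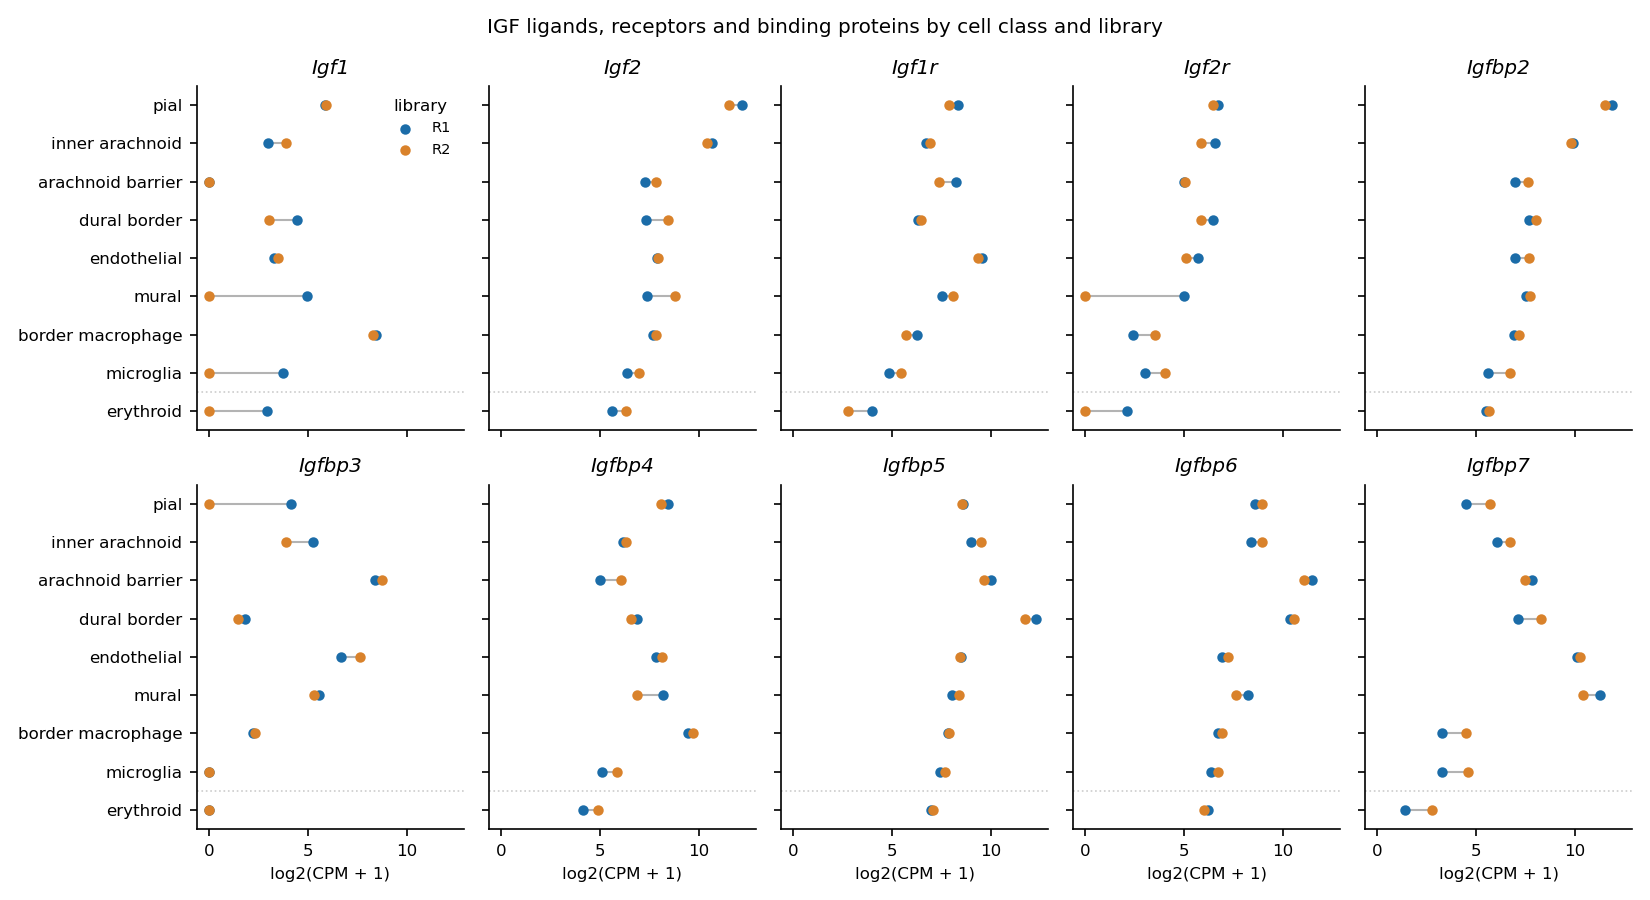
Level of each gene as log2(CPM + 1) in the 8 cell classes and, below the dotted line, in erythroid cells, which should lack these genes; 1 point per library (R1 blue, R2 orange) joined by a line, with n = 2 libraries. Igf2 and Igfbp2 peak in pial cells, Igfbp5 in dural border cells, Igf1 and Igfbp4 in border macrophages and Igfbp7 in mural and endothelial cells, in both libraries.

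Igf1r, the signalling receptor, was highest in endothelial cells. It lies on the plus strand of chromosome 7 from 67952827 to 68233668 (ENSMUSG00000005533). Its level was 758 and 641 CPM in endothelial cells, 327 and 237 CPM in pial cells, 304 and 163 CPM in arachnoid barrier cells, and 182 and 272 CPM in mural cells. The last 3 overlapped one another between libraries. Below them came inner arachnoid fibroblasts (105 and 120 CPM), dural border cells (77.2 and 87.9 CPM), border macrophages (75.7 and 51.9 CPM) and microglia (28.0 and 42.4 CPM). Endothelial cells stood 2.49 ± 0.14 (log2, adjusted p = 3.7e-65) above the mean of the remaining classes. Within the layers Igf1r was higher in pial cells (1.15 ± 0.21, adjusted p = 2.9e-05) and lower in dural border cells (-1.45 ± 0.23, adjusted p = 9.5e-07). Neither ligand was highest in the class with most receptor, but the ligands differed. Border macrophages were high in Igf1 and low in Igf1r, while pial cells, highest in Igf2, stood above the mean of the other layers in Igf1r.

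Igf2r, the clearance receptor, was low everywhere (ENSMUSG00000023830, chromosome 17, 12682406 to 12769664, minus strand). It reached 104 and 86.6 CPM in pial cells, 93.9 and 57.5 CPM in inner arachnoid fibroblasts and 87.2 and 57.4 CPM in dural border cells, which overlapped. Border macrophages had 4.33 and 10.5 CPM. The fibroblast layers as a whole were higher than the other classes by 1.98 ± 0.40 (log2, adjusted p = 4.5e-06), and border macrophages and microglia were lower (-2.11 ± 0.45, adjusted p = 8.7e-06). In the 4 comparisons between layers 0 passed in edgeR, where the adjusted p was 0.112 in pial, 0.0609 in inner arachnoid, 0.106 in arachnoid barrier and 0.892 in dural border cells, and the first 3 had an unadjusted p below 0.05. Igf2r overlaps the antisense RNA Airn, which had 202 UMIs beside 525 of Igf2r in the kept cells. How the counting treated strand is not given in the sources used here, so reads of the pair may not be fully separated.

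Igfbp2, whose product is abundant in cerebrospinal fluid, followed Igf2 closely. It stood at 3799 and 2898 CPM in pial cells and 964 and 893 CPM in inner arachnoid fibroblasts, and at 122 to 262 CPM in the outer layers of both libraries. Pial cells were higher than the other layers by 3.39 ± 0.20 (log2, adjusted p = 3.8e-20) and inner arachnoid fibroblasts by 1.35 ± 0.21 (adjusted p = 2.1e-06). Arachnoid barrier cells (-2.81 ± 0.34, adjusted p = 1.4e-08) and dural border cells (-1.93 ± 0.26, adjusted p = 2.4e-08) were lower. Across the 16 class sums, log2 levels of Igf2 and Igfbp2 had a Pearson r of 0.976, the highest of any pair of these genes. The sums share libraries and free RNA, so r is a description.

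The number of Igf2 UMIs per Igfbp2 UMI ran from 0.785 to 2.09 over the 8 classes and both libraries. It was 1.25 and 1.03 in pial cells, 1.70 and 1.52 in inner arachnoid fibroblasts, 1.25 and 1.17 in arachnoid barrier cells, and 0.785 and 1.30 in dural border cells. Endothelial cells had 1.845 and 1.19, mural cells, with few counts, 0.917 and 2.09, border macrophages 1.73 and 1.57, and erythroid cells 1.07 and 1.59. By contrast, Igfbp5 UMIs per Igfbp2 UMI ran from 0.1 and 0.127 in pial cells to 24.1 and 13.1 in dural border cells. At 1000 UMIs per cell, 90.0% and 83.8% of pial cells had an Igfbp2 UMI, 47.9% and 48.9% of inner arachnoid fibroblasts, and 4.69% and 0% (0 of 40 cells, which allows up to 7.5%) of erythroid cells.

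**Figure D2:**
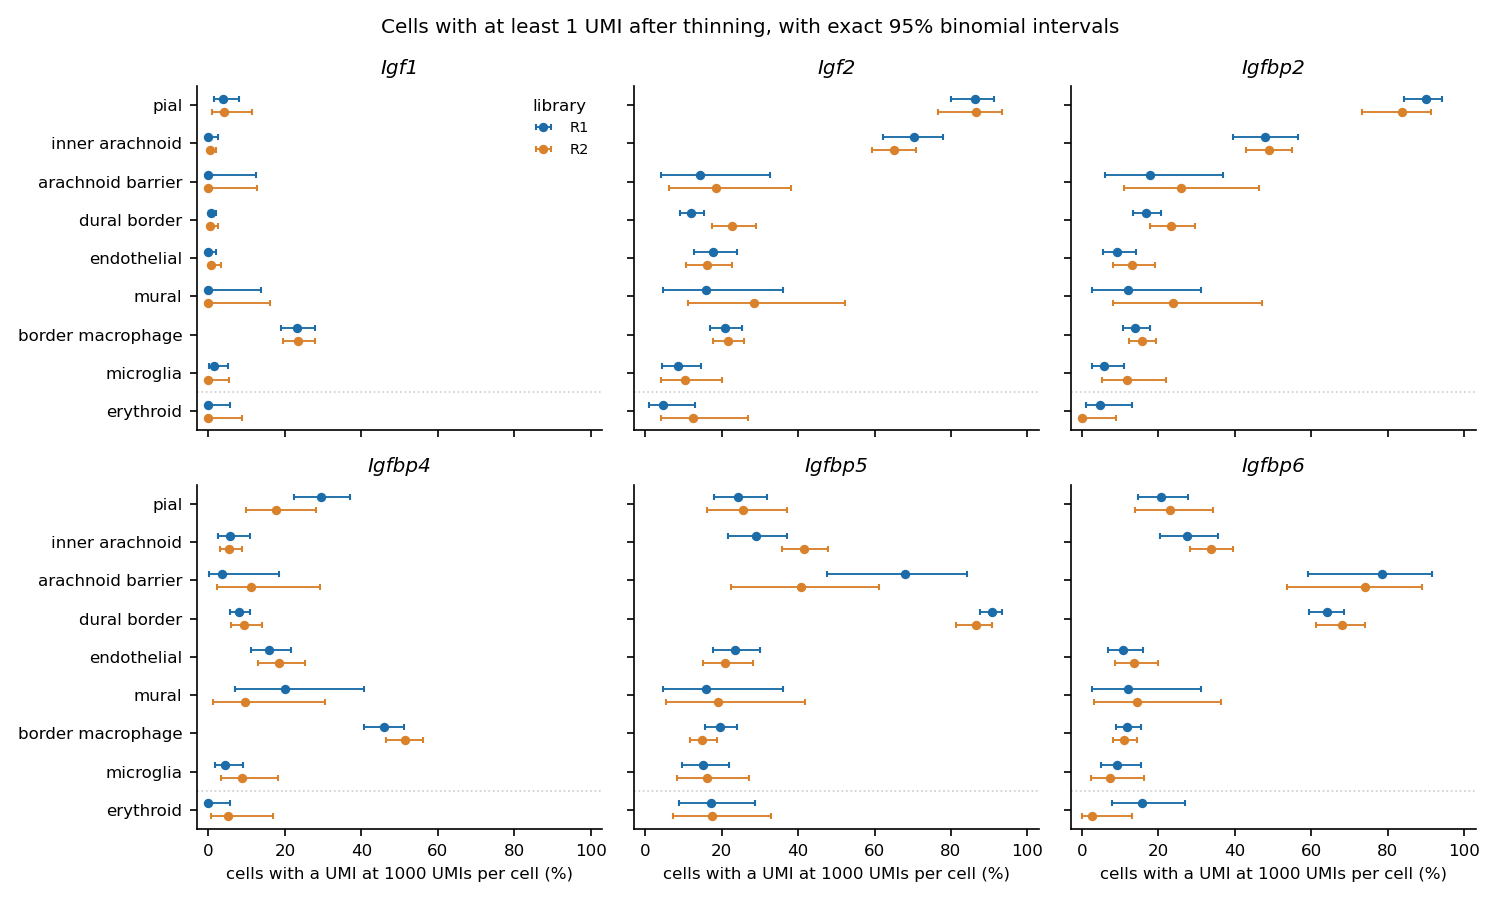
Percentage of cells with at least 1 UMI of 6 genes after each cell was thinned to 1000 UMIs, by class and library (R1 blue, R2 orange), with exact 95% binomial intervals for counting error only. The shares stand apart from erythroid cells, below the dotted line, for Igf2 and Igfbp2 in pial and inner arachnoid cells, Igfbp5 in dural border cells, Igfbp6 in dural border and arachnoid barrier cells, and Igf1 and Igfbp4 in border macrophages.

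Igfbp5, a binding protein that attaches to extracellular matrix, marked the outer border. It was the gene of this set with most UMIs, 14797 in the kept cells, of which dural border cells held 53.1%. Its level was 4938 and 3417 CPM in dural border cells, 1034 and 797 CPM in arachnoid barrier cells, 508 and 728 CPM in inner arachnoid fibroblasts and 379 and 369 CPM in pial cells. Dural border cells were highest and arachnoid barrier cells next in both libraries. The order of the inner layers depended on the inner arachnoid cluster: its Malat1-poor cells had 833 and 912 CPM, above pial cells, and its Malat1-rich cells 265 and 329 CPM, below them. Dural border cells were higher than the other layers by 2.63 ± 0.19 (log2, adjusted p = 1.4e-16) and pial cells lower (-1.83 ± 0.24, adjusted p = 4.4e-08). Igfbp5 was also the member with the highest level in erythroid cells, 124 and 135 CPM. Its levels in endothelial cells (359 and 344 CPM), border macrophages (226 and 235 CPM) and microglia (168 and 201 CPM) have to be read beside that, since the part of free RNA in them was not tested. Erythroid cells were also deeper. Their 66 and 44 cells held 75 and 47 Igfbp5 UMIs, and the 263 and 250 endothelial cells held 203 and 135. Of the endothelial UMIs, 107 and 43 were in an unnamed sub-cluster described below. At 1000 UMIs per cell 15% and 16.2% of microglia and 17.2% and 17.5% of erythroid cells had an Igfbp5 UMI.

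Igfbp6, which binds IGF2 more tightly than IGF1, was highest in arachnoid barrier cells (ENSMUSG00000023046, chromosome 15, 102144362 to 102149511, plus strand). It stood at 2860 and 2179 CPM there, at 1332 and 1526 CPM in dural border cells, and at 337 to 492 CPM in the inner layers. Arachnoid barrier cells were higher than the other layers by 1.71 ± 0.20 (log2, adjusted p = 5.3e-09) and dural border cells by 0.72 ± 0.19 (adjusted p = 0.00317). Pial cells (-1.38 ± 0.22, adjusted p = 2.8e-06) and inner arachnoid fibroblasts (-1.05 ± 0.21, adjusted p = 1.7e-04) were lower. With cells of at most 5% mitochondrial UMIs, where arachnoid barrier cells were too few to enter, the pial difference was -0.28 (adjusted p = 0.463). The fibroblast layers together were 2.66 ± 0.13 above the other classes (adjusted p = 1.1e-93).

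Igfbp3, the main carrier of IGF in serum, was highest in the arachnoid barrier, at low counts (ENSMUSG00000020427, chromosome 11, 7206086 to 7213923, minus strand). Arachnoid barrier cells had 22 and 26 counts (335 and 423 CPM), while the far more numerous dural border cells had 3 counts and 1 count (2.49 and 1.79 CPM). The ratio was 134-fold (40.4 to 701) in R1 and 236-fold (38.7 to 9667) in R2. Against inner arachnoid fibroblasts, with 16 and 10 counts, it was 9.14-fold (4.58 to 18.6) in R1 and 30.9-fold (14.4 to 71.8) in R2. Against pial cells it was 20.2-fold (8.33 to 56.0) in R1 and at least 30.9-fold in R2, where pial cells had 0 counts. Arachnoid barrier cells were higher than the other layers (log2 fold change 5.21 ± 0.43, adjusted p = 6.9e-14). At 1000 UMIs per cell 32.1% (15.9 to 52.4) and 25.9% (11.1 to 46.3) of arachnoid barrier cells had an Igfbp3 UMI, from 28 and 27 cells.

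Igfbp4, which inhibits IGF signalling until the protease PAPP-A cuts it, was highest in border macrophages among the 8 classes (ENSMUSG00000017493, chromosome 11, 99041244 to 99054392, plus strand). Border macrophages had 701 and 830 CPM, pial cells 343 and 273 CPM, endothelial cells 223 and 277 CPM, and microglia 33.3 and 57.9 CPM. Border macrophages exceeded microglia 21.1-fold (13.4 to 35.2) and 14.3-fold (8.66 to 25.7), a log2 fold change of 4.35 ± 0.26 (adjusted p = 2.8e-58). Pial cells were higher than the other layers by 2.10 ± 0.23 (adjusted p = 2.9e-10). Arachnoid barrier cells, with 2 and 4 counts, were lower (-1.82 ± 0.50, adjusted p = 0.0165), but this call did not hold. It ended with DESeq2 (adjusted p = 0.113), with at least 1% Malat1 UMIs (0.0667) and with the unnamed intermediate cluster added to that layer (-0.257, adjusted p = 0.571), and the direction turned with split counts, where classes were drawn on one portion of the counts and tested on the other (0.022, adjusted p = 0.979).

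Igfbp7, which binds IGFs weakly and lies in vascular basement membranes, was a gene of vessel walls (ENSMUSG00000036256, chromosome 5, 77349240 to 77408041, minus strand). Mural cells had 2448 and 1361 CPM and endothelial cells 1110 and 1201 CPM. Dural border cells had 135 and 312 CPM, arachnoid barrier cells 228 and 179 CPM, inner arachnoid fibroblasts 66.4 and 104 CPM, and pial cells 21.3 and 50.1 CPM. Endothelial cells exceeded the other classes by 3.58 ± 0.14 (log2, adjusted p = 1.3e-137). Haemoglobin and other erythroid markers took 2934 CPM of the mural sum in R1 and 60879 CPM in R2, and their part in the gap between the mural values was not tested. Within the layers Igfbp7 was higher in dural border cells (1.18 ± 0.22, adjusted p = 2.5e-05) and lower in pial cells (-2.17 ± 0.33, adjusted p = 1.1e-06). It overlaps Polr2b, a gene on the other strand with 522 UMIs in the kept cells beside 2166 of Igfbp7.

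**Figure D3:**
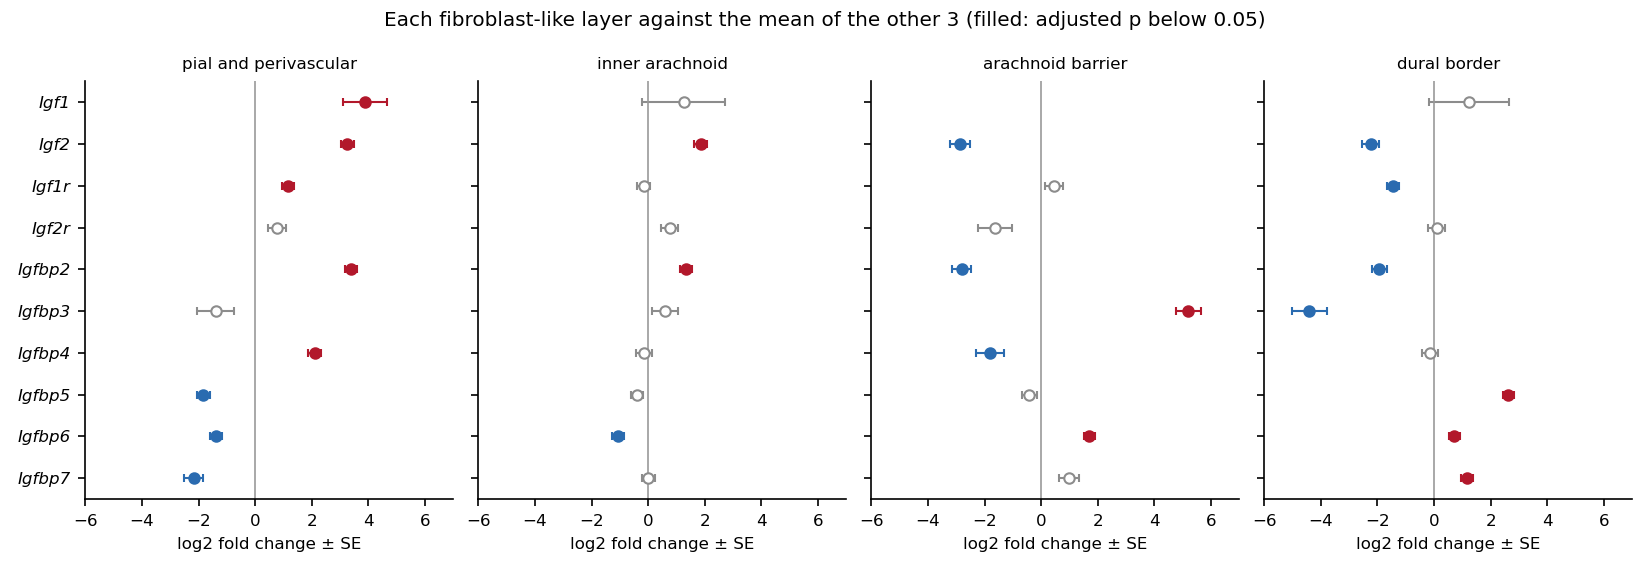
Log2 fold change for each gene in each fibroblast-like layer against the mean of the other 3 (edgeR, 4 layers in 2 libraries). Bars are the SE back-calculated from the test. Filled points have an adjusted p below 0.05, red higher and blue lower. Igf1 is not drawn for arachnoid barrier cells, where it had 0 counts. These cells do enter the mean of the other 3 in the Igf1 points that are drawn. Igf2 and Igfbp2 are on the higher side in pial and inner arachnoid cells and on the lower side in the outer layers, while Igfbp5 and Igfbp6 are higher in dural border cells.

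Counted over the layers, 8 of 10 genes passed the test in pial cells, where 12.9% of all 8466 genes tested passed. Of these 5 were higher, beside 8.15% of all genes, and 3 lower, beside 4.71%. In dural border cells 7 of 10 passed, beside 17.9% of all genes, with 3 higher (11.3% of all genes) and 4 lower (6.61%). In arachnoid barrier cells 5 passed, beside 5.65%, with 2 higher (3.27%) and 3 lower (2.37%). In inner arachnoid fibroblasts 3 passed, beside 23.0% of all genes, with 2 higher (15.4%) and 1 lower (7.54%). That count was 6 of 10 in cells with at most 5% mitochondrial UMIs, with split counts and with the intermediate cluster added to the arachnoid barrier. The share of all genes that passed in those settings is not given here. The median log2 fold change of the 10 was 0.96 in pial, 0.31 in inner arachnoid, -1.02 in arachnoid barrier and -0.02 in dural border cells, against 0.04, 0.06, -0.14 and 0.06 over all genes. All 10 genes passed the filter on low counts in this fit.

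The fit of all 8 classes tested 10125 genes. The fibroblast layers together differed from the other classes in 7 of 10 genes, beside 39.6% of all genes, with 5 higher (21.6% of all genes) and 2 lower (17.9%). The higher ones were Igf2 (1.81 ± 0.16), Igf2r, Igfbp2 (2.09 ± 0.18), Igfbp5 (1.86 ± 0.13) and Igfbp6, and the lower ones Igfbp4 (-1.02 ± 0.19) and Igfbp7. With split counts the Igfbp4 call ended (-0.446, adjusted p = 0.0591). Igfbp7 was at -0.57 ± 0.20 (adjusted p = 0.0121), a call that ended with DESeq2 (adjusted p = 0.0748), without the library block (0.0571) and with split counts (0.244). In both settings in which mural cells fell under the cell minimum and were not in the fit, Igfbp7 was higher in the fibroblast layers, by 0.78 (at most 5% mitochondrial UMIs) and 0.84 (at least 1% Malat1 UMIs). Under the mitochondrial limit arachnoid barrier cells (13 and 24) were not in the fit either, and both settings changed the cells of every class. The cause of the turn was not tested. Endothelial cells differed in 8 of 10, beside 24.2%, with 4 higher (16.7%) and 4 lower (7.48%). Their higher genes were Igf1r, Igfbp7, Igfbp3 (3.77 ± 0.30) and Igfbp4 (0.78 ± 0.19). For Igfbp3 microglia had 0 counts in both libraries, and R1 and R2 alone gave 2.25 and 3.53. The lower genes of endothelial cells were Igf2, Igfbp2, Igfbp5 and Igfbp6. Of these, Igfbp5 was at -0.497 (adjusted p = 0.0542) in cells with at most 5% mitochondrial UMIs.

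Myeloid cells, border macrophages and microglia together, differed in 10 of 10 genes, beside 55.1% of all genes (31.7% higher, 23.4% lower). Igf1 (2.902 ± 0.59) and Igfbp4 (0.74 ± 0.20) were higher and the other 8 lower, from -1.37 ± 0.15 for Igfbp5 to -4.81 ± 0.68 for Igfbp3. Only border macrophages were high in Igf1 and Igfbp4. Microglia had 12.3 CPM and 0 counts of Igf1, and 33.3 and 57.9 CPM of Igfbp4. For Igfbp3 microglia had 0 counts in both libraries, and R1 and R2 alone gave -2.98 and -2.33. For Igf1 arachnoid barrier cells had 0 counts in both, and R1 and R2 alone gave 2.47 and 1.74. In cells with at most 5% mitochondrial UMIs 3 of these calls ended: Igf1 was at 1.503 (adjusted p = 0.0752), Igfbp4 at 0.435 (adjusted p = 0.0573) and Igfbp3 at -3.272 (adjusted p = 1.0). The Igfbp4 call also ended with at least 1% Malat1 UMIs (0.45, adjusted p = 0.0935) and with split counts (0.279, adjusted p = 0.343). Border macrophages were higher than microglia in 5 of 10 genes and lower in 0. Of all genes 19.8% passed, 12% higher and 7.8% lower. The higher IGF genes were Igf1, Igfbp4, Igf2 (1.31 ± 0.26), Igfbp2 (1.10 ± 0.28) and Igf1r (1.13 ± 0.33). With DESeq2, Igf1 and Igfbp4 alone passed, 2 genes in place of 5, without a share of all genes beside them.

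Border macrophages, microglia and inner arachnoid fibroblasts each fell into a cluster rich and a cluster poor in Malat1, a nuclear RNA that is scarce in droplets without an intact nucleus. In border macrophages 8 of the 10 genes were higher in the Malat1-poor cluster in both libraries. Of these, Igf2r and Igfbp3 lay at or below 24.5 CPM in both clusters. Igfbp5 had 99.1 and 87.4 CPM in the rich and 465 and 480 CPM in the poor cluster, and Igf2 had 124 and 119 CPM against 359 and 400 CPM. Igf1 went the other way, with 395 and 362 CPM in the rich and 269 and 229 CPM in the poor cluster. Igfbp4 was nearly level, at 663 and 790 CPM against 774 and 896 CPM. In microglia 5 of 10 genes were higher in the poor cluster in both libraries, among them Igf2 at 30.7 and 72.3 CPM against 223 and 274 CPM. In inner arachnoid fibroblasts 7 genes were higher in the poor cluster and 2 in the rich one, in both libraries. The share of all genes that were higher in the poor clusters is not given here, so these counts stand without a background. Igf2 remained high in both inner arachnoid clusters (1367 and 1109 CPM, 1997 and 1470 CPM), whereas Igfbp5 differed as given above. The part of free RNA in these differences was not tested.

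**Figure D4:**
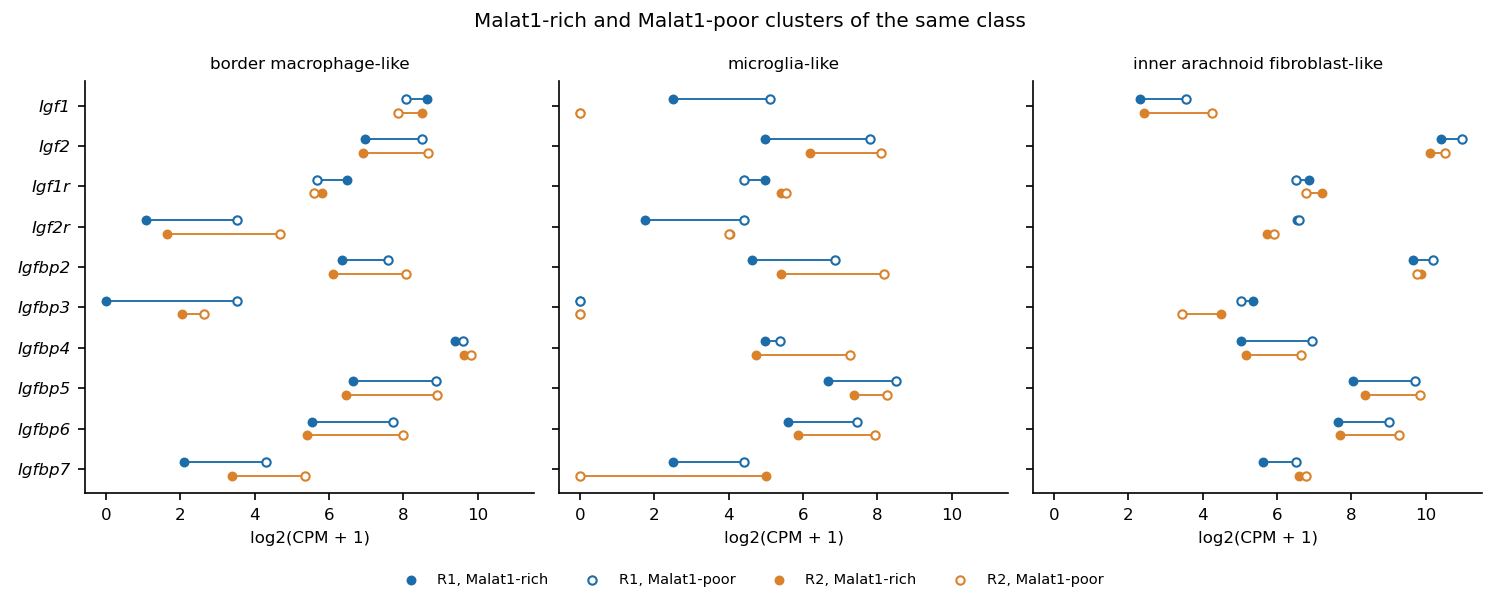
Level of each gene as log2(CPM + 1) in the Malat1-rich (filled) and Malat1-poor (open) cluster of 3 classes, by library (R1 blue, R2 orange). In border macrophages Igf1 lies higher in the rich cluster in both libraries, while Igf2, Igfbp2, Igfbp5 and Igfbp6 lie higher in the poor one.

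Endothelial cells were split into arterial (68 and 76 cells), capillary (101 and 43) and venous (55 and 73) sub-classes. A further sub-cluster of 39 and 58 cells, led by genes that include Ctss, Lyve1 and C1qc, took no name. It stayed in the endothelial class but not in the sub-class tests. It held 107 of 203 and 43 of 135 endothelial Igfbp5 UMIs, and 11 of 71 and 44 of 80 endothelial Igfbp2 UMIs. Igfbp3 and Igfbp4 were arterial: Igfbp3 had 510 and 703 CPM in arterial cells, 25.1 and 11.1 CPM in capillary cells and 0 counts in venous cells. In arterial cells Igfbp3 stood above any of the 8 classes. It was at least 16.6-fold and 30.6-fold higher in arterial than in venous cells, against a floor of 3 counts per library. Igfbp4 had 1125 and 1012 CPM in arterial cells, above any of the 8 classes, and 31 and 23 CPM, 3 counts each, in venous cells. The arterial to venous ratio of Igfbp4 was 36.6 (12.2 to 180.5) and 44.1 (14.6 to 217.5). Against the mean of the other sub-classes the arterial log2 fold changes were 7.08 ± 0.47 for Igfbp3 (adjusted p = 3.6e-21) and 5.69 ± 0.30 for Igfbp4 (adjusted p = 2.0e-26).

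Igf1r was lowest in arterial cells. Capillary cells had 995 and 1593 CPM, venous cells 625 and 444 CPM and arterial cells 174 and 213 CPM, with no overlap between these named sub-classes. Capillary cells were higher by 1.91 ± 0.22 (log2, adjusted p = 6.1e-11) and arterial cells lower (-1.99 ± 0.28, adjusted p = 3.2e-08). At 1000 UMIs per cell 72.4% and 62.5% of capillary, 36.4% and 35.1% of venous and 13.6% and 20.5% of arterial cells had an Igf1r UMI. In this fit 7 of the 10 genes passed the filter on low counts and Igf1, Igf2r and Igfbp6 did not. In each sub-class 3 of the 7 passed the test, of 2428 genes tested in all. In arterial cells 2 were higher and 1 lower, beside 23.2% of all genes (12.6% higher, 10.7% lower). In venous cells 0 were higher and 3 lower, beside 11.6% (7.29% higher, 4.28% lower). In capillary cells 2 were higher and 1 lower, beside 20.8% (11.2% higher, 9.6% lower).

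Igfbp7 was high in all 3 sub-classes: 1494 and 1827 CPM in capillary, 754 and 1332 CPM in arterial and 543 and 927 CPM in venous cells. Without the shared barcodes it was higher in capillary cells (0.92 ± 0.18, adjusted p = 7.7e-05) and lower in venous cells (-0.89 ± 0.20, adjusted p = 7.0e-04). The cluster of shared barcodes, led by genes that include the venous markers Lcn2, Lrg1 and Ackr1, had 5991 and 6090 CPM of Igfbp7. The capillary call also ended in cells with at most 5% mitochondrial UMIs (0.241, adjusted p = 0.583) and with split counts (0.352, adjusted p = 0.391), and the venous call with DESeq2 (adjusted p = 0.0724) and with split counts (-0.491, adjusted p = 0.166). With the shared barcodes Igfbp7 was higher in venous cells (1.435, adjusted p = 1.61e-12) and the capillary value was -0.26 (adjusted p = 0.393), so both directions turned. With them 9 genes passed in arterial and 7 in venous cells, but 9 genes were then tested in place of 7. The share of all genes that passed with them is not given here. The capillary cells also held mural markers: Rgs5 had 1435 and 1081 CPM there against 154 and 207 CPM in venous cells, and 5747 and 2158 CPM in mural cells. The part of mural RNA in the capillary level of Igfbp7 was not tested. When classes were drawn on one portion of the counts and tested on the other, the venous comparison gave 0 calls in edgeR, with 1 of 5 genes at an unadjusted p below 0.05, and DESeq2 on the undivided counts gave 1.

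**Figure D5:**
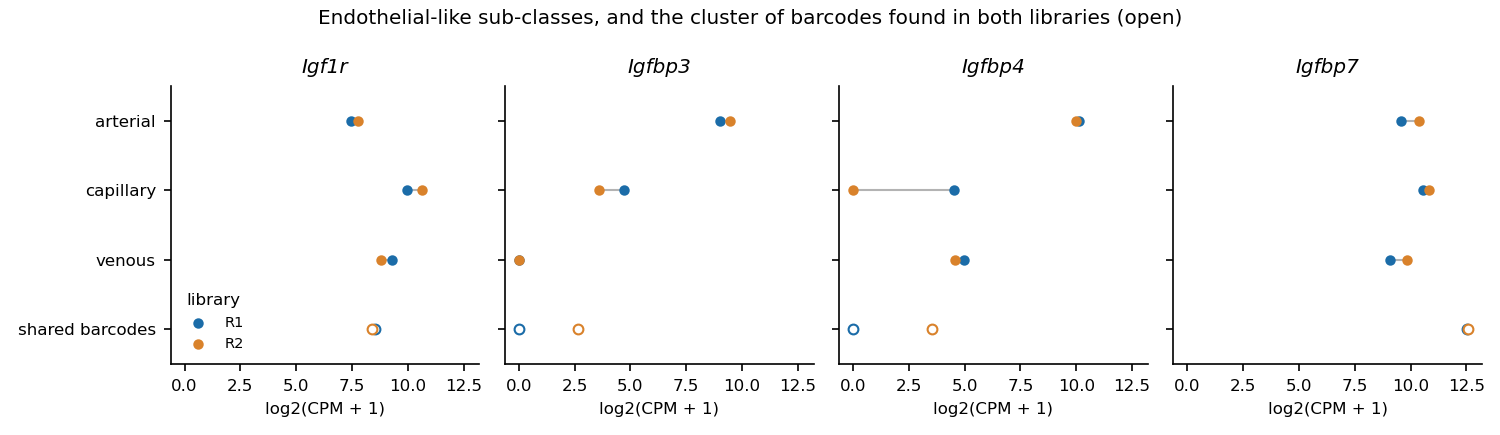
Level of 4 genes as log2(CPM + 1) in the arterial, capillary and venous sub-classes (filled points, R1 blue and R2 orange) and in the cluster of barcodes found in both libraries (open points), which is left out of the tests. Igfbp3 and Igfbp4 are arterial, Igf1r is highest in capillary cells, and Igfbp7 is highest in the shared barcodes.

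Around the 10 genes, a list of 32 further genes of the IGF and insulin pathway was followed, of which 19 were tested in all classes, 17 in the layers and 4 in the endothelial sub-classes. In dural border cells 5 of the 17 were higher and 1 lower, beside 11.3% and 6.61% of all genes. Htra3, a secreted protease that cuts IGF-binding proteins, was at 559 and 595 CPM there and 3.16 ± 0.22 (log2) above the other layers (adjusted p = 4.3e-17). Irs1, an adaptor of the receptor, was higher by 1.86 ± 0.35 (adjusted p = 4.4e-05), with 113 CPM in R1 and 28.7 CPM in R2. Pik3r1, the regulatory subunit of PI3-kinase, was lower (-2.07 ± 0.41, adjusted p = 8.6e-05).

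In pial cells Pik3r1 was higher (1.15 ± 0.35, adjusted p = 0.0203) and Htra3 was lower (-1.56 ± 0.37, adjusted p = 0.00151). In inner arachnoid fibroblasts the insulin receptor-related receptor gene Insrr was higher, with 87.0 and 35.6 CPM (5.79 ± 0.67, adjusted p = 2.0e-09), and the insulin receptor gene Insr was lower (-0.87 ± 0.29, adjusted p = 0.0247). In arachnoid barrier cells 0 of the 17 were higher, beside 3.27% of all genes, and 1 was lower, beside 2.37%. The lower gene was Htra1 (-1.71 ± 0.41, adjusted p = 0.00452).

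Endothelial cells had 7 of the 19 higher and 1 lower, beside 16.7% and 7.48% of all genes. Grb14, an adaptor that inhibits the insulin receptor, had 117 and 58.5 CPM there and 7 counts in all other classes together (6.40 ± 0.51, adjusted p = 4.1e-35). Foxo1, a transcription factor that the pathway restrains, was higher by 1.92 ± 0.24 (adjusted p = 2.1e-14) and Insr by 1.48 ± 0.19 (adjusted p = 3.4e-13). Within the endothelium the protease gene Htra1 followed Igfbp3 and Igfbp4, with 696 and 1161 CPM in arterial cells and 20.5 and 7.66 CPM in venous cells (arterial 5.11 ± 0.31, adjusted p = 1.5e-23). The fibroblast layers together had 5 of the 19 higher and 2 lower, near the 21.6% and 17.9% of all genes, with Htra3 at 1.83 ± 0.27 and the adaptor Shc1 at 1.59 ± 0.25. Myeloid cells had 3 of the 19 higher and 6 lower, beside 31.7% and 23.4% of all genes, with Pik3r1 at 1.54 ± 0.17 and Htra1 at -2.83 ± 0.25. Border macrophages against microglia had 1 of the 19 higher and 1 lower, beside 12% and 7.8% of all genes. The higher one was the kinase gene Akt2 (1.19 ± 0.34) and the lower one Pik3r1 (-0.76 ± 0.22). Igfbp1 had 0 UMIs in the kept cells, Igfals 5 and the imprinted neighbour of Igf2, H19, 71.

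The 3 genes whose log2 levels over the 16 class sums were most like those of Igf2, among 6310 genes with at least 50 CPM in a class, were Slc7a11 (r = 0.936), Fmod (0.932) and Slc6a13 (0.929). The same 3 led for Igfbp2, at 0.946, 0.934 and 0.920. Slc7a11 encodes the cystine exchanger, Fmod a collagen-binding proteoglycan and Slc6a13 a GABA and taurine transporter. Slc6a13 is also a marker used to name inner arachnoid cells, but it was highest in pial cells, at 1763 and 1727 CPM. Igfbp5 was nearest to Slc26a2 (0.965), Slc4a10 (0.962) and Slc26a7 (0.952), all anion or bicarbonate transporters with their highest level in dural border cells. Igfbp6 was nearest to Thsd4 (0.973), Cdh1 (0.970), a marker used to name the arachnoid barrier, and Lmo4 (0.956). Igfbp7 was nearest to Ehd2 (0.954), Epas1 (0.944) and Pls3 (0.936), and Igf1r to Fryl (0.932), Shroom4 (0.916) and Jcad (0.915), all highest in endothelial cells. Igfbp3 was nearest to Jade1 (0.904), Igfbp4 to Dpm3 (0.862), Igf1 to Cdk4 (0.852) and Igf2r to Sobp (0.932).

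A pair of clusters with high binding protein levels had no name by the rule used. A Malat1-poor cluster led by Dcc, Penk and Ecrg4, with choroid plexus and dural border as its highest marker scores (2.80 and 2.38), held 345 and 634 cells, with 3527 and 3126 CPM of Igfbp5, 1390 and 1666 CPM of Igfbp6 and 387 and 409 CPM of Igf2. It held 19.98% of all Igfbp5 UMIs and 20.8% of all Igfbp6 UMIs, and 16.7% of the kept cells. A second cluster of 80 and 44 cells, with markers of both the arachnoid barrier and the dural border, had 2374 and 1885 CPM of Igfbp5, 2264 and 2514 CPM of Igfbp6, and for Igfbp3 0 counts in R1 and 7.31 CPM in R2. When it was added to the arachnoid barrier, 8 genes in place of 5 passed in that layer, and the share of all genes that then passed is not given here.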

How the data were processed

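Single-cell RNA of 2 libraries was deposited as UMI counts per gene and barcode, which the authors made in Cell Ranger (version 4.0.0, per the file headers) and on mm10 per the submitters' processing notes; deposited gene and barcode lists carry no measurement. Barcodes under 400 genes or over 10% mitochondrial UMIs were removed, shared barcodes were dropped, and doublets were not removed. Cells were clustered with scanpy 1.11.5 (2000 variable genes without the IGF list, 30 components, 15 neighbours, Leiden resolution 1.0, and 0.8 within endothelium). A cluster took a name where its marker score reached 1.5 and led the next list by 1.0 (log2), a margin chosen after the clusters were seen. Of 28 marker lists, those that bear on a result are printed beside it.

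Counts were summed per class and library (at least 30 cells, or 20 for endothelial sub-classes) and tested with edgeR 4.0.16 (TMM, filterByExpr, quasi-likelihood, library as a block, Benjamini-Hochberg over all genes tested, threshold 0.05) in R 4.3.3. The block follows from the design, since classes of 1 library come from the same suspension. Each fold change weights classes equally, and its size is loosely set where a class had 0 counts. Fold changes of R1 or R2 alone use a prior count of 2. CPM are a gene's counts scaled by all UMIs of the class sum, without TMM factors. Intervals and floors (3 counts) cover counting error only. Scripts were tested on simulated data. Alternatives were DESeq2 1.42.0 and its size factors, no count filter, no block, each library left out, at most 5% mitochondrial UMIs, at least 1% Malat1 UMIs, and classes drawn and tested on separate portions of the counts. Adding the shared barcodes, or the unnamed intermediate cluster to the arachnoid barrier, was chosen after seeing the data.

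All 10 genes are described by name. Of the wider list, up to 3 genes per comparison are named: the largest that passed, reached 50 CPM where higher and had 1 direction in both libraries. 1 gene that this rule names is not reported here. The members and lists were chosen with earlier results of these data known.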

Additional observations from a re-analysis of the deposited data

Results flagged for a closer look

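In data that the comparisons do not use, the cluster of barcodes found in both libraries, Igfbp7 stood at 5991 CPM in R1 and 6090 CPM in R2, above its level in every cell class. The same cluster had 373 and 332 CPM of Igf1r, and 0 counts of Igf2 and of Igfbp2 in both libraries, which allows 16.9 and 16.04 CPM.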

How the results depend on the processing

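Of 62 called fold changes, 47 kept their direction and their side of the threshold under every alternative that gave a value. The number of genes called moved by over 1.5 times in 5 comparisons; single calls also ended in the fibroblast, endothelial, myeloid, pial and capillary comparisons, as given beside them. With DESeq2 it was 2 for border macrophages against microglia and 1 for venous cells. For inner arachnoid fibroblasts it was 6 with at most 5% mitochondrial UMIs, 6 with split counts and 6 with the intermediate cluster counted as arachnoid barrier, a choice that gave 8 for the arachnoid barrier. Split counts gave 0 for venous cells in edgeR, with 1 of 5 genes at an unadjusted p below 0.05. With the shared barcodes it was 9 for arterial and 7 for venous cells, of 9 genes then tested in place of 7. For none of these alternatives is the share of all genes that passed given here, so these counts stand without a background. The directions that turned were those of Igfbp7 in the fibroblast layers (0.778 with at most 5% mitochondrial UMIs, in a fit without mural and arachnoid barrier cells, and 0.84 with at least 1% Malat1 UMIs, in a fit without mural cells), Igfbp4 in the arachnoid barrier (0.022 with split counts), and Igfbp7 in venous (1.435) and capillary cells (-0.263) with the shared barcodes. The cause was not tested. Without the replicate block 61 of 62 calls were the same, and Igfbp7 in the fibroblast layers was at -0.54 (adjusted p = 0.0571). Leaving out either library kept the direction of 62 of 62 fold changes, as values with no test. Under the 5% mitochondrial limit the arachnoid barrier and venous comparisons gave no value, because too few cells remained.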
